A study of Mus musculus with 2 samples.

Results

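Gsn and 9 other genes that are read in connective tissue fibroblasts (Clec3b, Pi16, Dpt, C3, Gdf10, Myoc, Hmcn2, Inmt and Dpep1) were followed in αSMA-labeled periosteal cells. These 10 genes, of 17938 listed for either plate, were chosen by measured values of the same cells, so their levels and the groups they peak in are descriptions and carry no test. Single Tomato+ cells from the periosteum of tibia and femur were sorted into wells, and their 3′ transcript ends were counted with unique molecular identifiers (UMIs), so that a level does not scale with gene length. Cells at 2 days (10.3 weeks of age) and at 6 weeks (43 days of chase, 14.4 weeks of age) came from αSMACreER/Ai9/Col2.3GFP mice. Cells at 13 weeks (96 days of chase, 20.1 weeks of age) came from αSMACreER/Ai9/R26-M2rtTA/TetOP-H2B-GFP mice that had been fed doxycycline for 5 weeks from early postnatal life. All mice received 2 injections of tamoxifen at 75 mg/kg, 1 day apart. αSMACreER marks whatever cell expresses αSMA when tamoxifen is given, so the cells are of several types. Each time point was 1 pool of 2 to 3 female mice, the 2-day and 13-week pools shared a plate and the 6-week pool had its own. Strain, age, doxycycline and time therefore cannot be told apart at 13 weeks, nor plate, age and time at 6 weeks. With 1 pool per time point, intervals below are 95% intervals that cover counting error only.

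Wells with at least 200 genes were kept, 181 of 192 at 2 days, 189 of 216 at 6 weeks and 133 of 192 at 13 weeks, 503 in all, with a median of 727 UMIs. The cells were grouped by Rgs5, a marker of pericytes, and by the summed UMIs of Thbs4, Fmod and Tnmd, genes of tendon and fibrous tissue. The Rgs5-negative cells with under 3 tendon UMIs (tendon-low) numbered 211, those with 3 or more (tendon-high) 174, the Rgs5-positive tendon-low cells 105 and the cells with both 13. The 52 tendon-low, Rgs5-negative cells with 3 or more UMIs of the satellite or skeletal muscle lists are given apart where they bear on a value, and 159 remained without them. All 216 cell barcodes of the 6-week wells also occurred on the mixed plate, so a barcode marks a well only within its plate.

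Gelsolin, the product of Gsn, severs and caps actin filaments, and the same gene makes a cytoplasmic form and a secreted plasma form. Fibroblasts around vessels and in connective tissue sheaths are known for Pi16, Dpp4, Cd34 and Ly6a, while fibroblasts within tissue parenchyma are known for Col15a1, Apod and other matrix and lipid-handling genes. Most of the products here leave the cell: Clec3b encodes tetranectin, a lectin-like protein that binds plasminogen, Pi16 a CAP-family protein, Dpt the decorin-binding matrix protein dermatopontin, C3 the central component of complement, Gdf10 a ligand of the TGF-β superfamily, Myoc the olfactomedin-domain protein myocilin and Hmcn2 the large matrix protein hemicentin 2. Not every product is secreted, since Inmt encodes a cytosolic N-methyltransferase and Dpep1 a dipeptidase tethered to the cell surface.

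The genes lie apart in the genome (GENCODE M21, GRCm38). Gsn is at chr2:35256380-35307892 on the plus strand with 6 coding transcripts from 6 starts, 2 of which end within 50 bases of the last end. Counts were made per gene at 3′ ends, so the cytoplasmic and secreted forms were not told apart. Antisense genes overlap Pi16, Dpt and Myoc, and the strand setting of the counting was not given in the sources used here. Genes on the same strand overlap Gsn (Gm43128), C3 (Mir6978) and Dpep1 (Gm20388), and how shared reads were assigned was not examined. RefSeq promoter windows (250 bases before to 50 after the start, GRCm38.p6) were found for 9 of the 10 genes, 3 of them for Gsn, and none was used for Clec3b. Windows are shown for C3 and Dpt, which were found in the same cells more often than their shares give, and for Gdf10 and Dpep1, which were found together in 5 cells. They are C3 at chr17:57228087-57228386 (minus strand), Dpt at chr1:164796413-164796712 (plus), Gdf10 at chr14:33923337-33923636 (plus) and Dpep1 at chr8:123185985-123186284 (plus). Capitals mark matches on either strand to TATAAA (the letters of a TATA box), to CCAAT (the CCAAT box), to GGGCGG (the GC box), to TGANTCA (a core letter pattern of AP-1 sites), to TTNCNNAA (a loose form of C/EBP sites) and to GGAATG (a core of TEAD sites).
C3: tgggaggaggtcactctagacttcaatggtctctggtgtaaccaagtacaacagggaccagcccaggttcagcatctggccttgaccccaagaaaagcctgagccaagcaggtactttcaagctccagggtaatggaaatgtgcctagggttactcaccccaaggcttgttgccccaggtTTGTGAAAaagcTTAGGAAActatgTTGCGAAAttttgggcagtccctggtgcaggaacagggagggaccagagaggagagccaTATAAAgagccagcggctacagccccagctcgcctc
Dpt: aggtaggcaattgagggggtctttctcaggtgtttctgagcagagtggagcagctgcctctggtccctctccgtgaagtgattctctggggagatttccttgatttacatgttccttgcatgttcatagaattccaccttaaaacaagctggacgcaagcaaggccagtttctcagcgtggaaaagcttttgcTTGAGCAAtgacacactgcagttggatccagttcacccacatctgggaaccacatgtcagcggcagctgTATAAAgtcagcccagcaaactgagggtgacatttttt
Gdf10: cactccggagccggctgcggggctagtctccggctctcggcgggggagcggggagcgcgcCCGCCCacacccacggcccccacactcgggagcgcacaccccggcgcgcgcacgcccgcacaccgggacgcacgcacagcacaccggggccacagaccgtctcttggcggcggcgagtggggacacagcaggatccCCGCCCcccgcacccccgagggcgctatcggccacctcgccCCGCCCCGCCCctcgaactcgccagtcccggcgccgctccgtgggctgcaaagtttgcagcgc
Dpep1: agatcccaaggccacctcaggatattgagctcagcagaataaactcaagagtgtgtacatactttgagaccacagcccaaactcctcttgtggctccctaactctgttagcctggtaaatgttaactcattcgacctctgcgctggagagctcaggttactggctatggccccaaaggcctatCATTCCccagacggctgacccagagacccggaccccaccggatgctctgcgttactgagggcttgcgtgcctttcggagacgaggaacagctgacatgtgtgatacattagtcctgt
The C3 window held 3 matches to TTNCNNAA and the Dpt window 1, both also held TATAAA, which began 14 and 12 bases after the annotated start and not before it, and the Gdf10 window held 4 matches to GGGCGG, the last 2 of them overlapping. Dpep1 held a single GGAATG. Of 32841 windows of all genes, 40.7% held TTNCNNAA, 13.6% TATAAA, 35.7% GGGCGG, 37.4% CCAAT, 14.7% GGAATG and 7.8% TGANTCA. The Pi16 and Myoc windows and 1 of the 3 Gsn windows also held TTNCNNAA, and the other 2 Gsn windows and those of Gdf10, Hmcn2, Inmt and Dpep1 did not. G and C made up 77.3% of the Gdf10 window, 53.3% of C3 and 48.7% of Dpt, and 70.7% of the Hmcn2 window, which held no GGGCGG, and none of these matches was related to a measurement.

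Gsn was the gene with most UMIs of the 10, and each of the 10 had most of its UMIs in the Rgs5-negative, tendon-low cells. Gsn, Clec3b, Gdf10, Myoc, Hmcn2 and Dpep1 were read in every group. Clec3b stood at 8.56 UMIs per 10000 (3.70 to 16.9) in the 13 cells with both markers, from 8 UMIs in 2 cells, against 4.95 in tendon-low cells. Gsn totalled 1897 UMIs in 297 of 503 cells, Myoc 257 UMIs in 88 cells, Dpt 156 in 83, Clec3b 123 in 63, C3 122 in 35, Pi16 55 in 35, Hmcn2 54 in 40, Gdf10 31 in 21, Dpep1 26 in 18 and Inmt 23 in 14. C3 reached 15 UMIs in 1 cell while 51.4% of its cells held a single one, so a few cells carried much of its total, and 82.5% of the cells with Hmcn2 held a single UMI of it.

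In the tendon-low, Rgs5-negative cells Gsn stood at 77.5 UMIs per 10000 (73.6 to 81.5), against 15.9 (14 to 18.0) in tendon-high and 11.6 (9.42 to 14.2) in Rgs5-positive cells. The cells with both markers were at 59.9 (45.3 to 77.8), from only 13 cells. With each cell thinned to 300 UMIs, Gsn was found in 55.4% (48.3 to 62.4) of 202 tendon-low cells, 30.2% (23.4 to 37.7) of 169 tendon-high cells and 23.2% (15.3 to 32.8) of 99 Rgs5-positive cells. The interval of the first group did not reach the other intervals, which overlapped each other, but that of the 13 cells with both markers, 46.2% (19.2 to 74.9), overlapped all of them. Without thinning the shares were 70.1%, 59.2% and 36.2%, with median depths of 734, 788 and 571 UMIs. No group here is known to lack Gsn, and the share at equal depth was 20.4% (10.2 to 34.3) in the cells with muscle lists, 19.5% (11.3 to 30.1) in the cells with 2 or more UMIs of Rgs5 and 14.3% (4.03 to 32.7) in the Rgs5-positive cells of the 13-week pool. The part of free RNA in these shares was not tested.

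**Figure D1:**
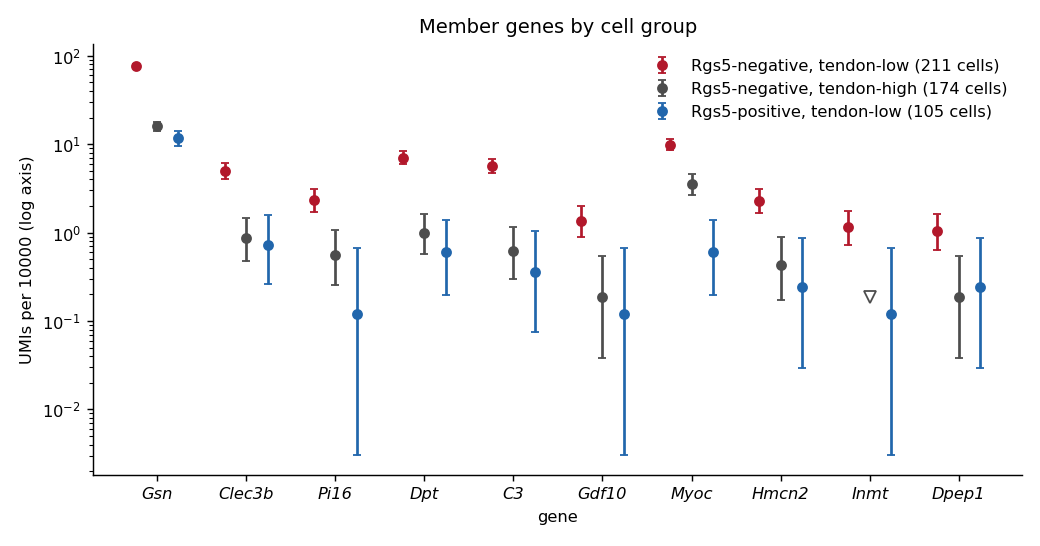
Pooled level of each gene, in UMIs per 10000 on a log axis, in the Rgs5-negative tendon-low, Rgs5-negative tendon-high and Rgs5-positive tendon-low cells, with exact 95% Poisson intervals. An open triangle marks a count of 0 at its limit of 3 UMIs, which is the case for Inmt in tendon-high cells. The tendon-low level is the highest for every gene, from 77.5 for Gsn to 1.04 for Dpep1.

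Within the tendon-low group Gsn was concentrated in part of the cells. Per cell it ran from 0 in 63 of 211 cells through a median of 25.8 to 392 per 10000, and 55 cells (26.1%, 20.3 to 32.5) held 10 or more UMIs of it, against 3 of 174 tendon-high and 3 of 105 Rgs5-positive cells. The 63 cells with 10 or more, of all groups, held 70.3% of all Gsn UMIs. The groups overlapped, since a few tendon-high and Rgs5-positive cells reached 168 and 210 per 10000. At 2 days the lowest, median and highest tendon-low values were 0, 26.8 and 314, at 6 weeks 0, 35.3 and 392 and at 13 weeks 0, 15.2 and 255, so the ranges overlapped at all times.

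**Figure D2:**
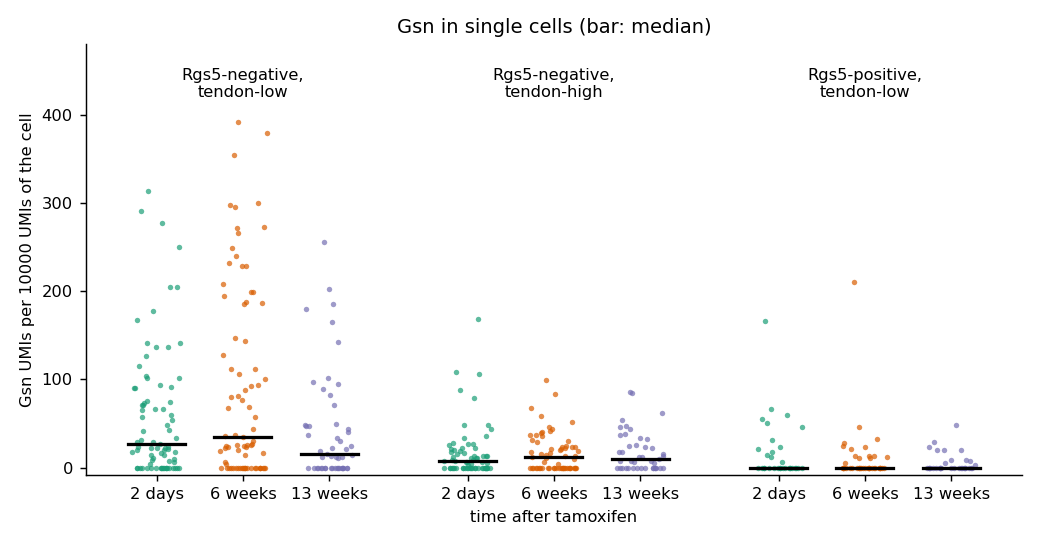
Gsn in each kept cell, as UMIs per 10000 of the cell's UMIs, by group and time after tamoxifen; each point is 1 cell and the bar is the median. The highest cells, up to 392, are Rgs5-negative and tendon-low, and the median of the Rgs5-positive cells is 0 at every time.

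The values just inside and outside the limits of the grouping were as follows. Rgs5-positive cells with exactly 1 UMI of Rgs5 had 24.0 per 10000 (17.7 to 31.8) and those with 2 or more had 7.71 (5.71 to 10.2). Rgs5-negative cells with 2 tendon UMIs had 76.1 (67.6 to 85.4) and those with 3 had 48.7 (37.2 to 62.5). The 44 wells with 200 to 249 genes were at 19.7 and the 40 wells with 150 to 199 genes, which were not kept, at 10.4.

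The other 9 genes followed the same grouping. Against Rgs5-positive cells, all 10 genes were at least 2-fold higher in the tendon-low cells, where 14.7% of 2382 genes with 20 or more UMIs were. Against tendon-high cells all 10 were at least 2-fold higher, where 12.6% of 2955 genes were. The genes had been chosen with these contrasts known, so nothing is read from either count. Inmt had no UMI in 174 tendon-high cells, and its 22 UMIs in the tendon-low cells gave a level at least 6.15-fold higher, computed against 3 UMIs over the group. Myoc was the gene with the smallest difference from tendon-high cells, 9.84 against 3.54 per 10000 and 2.78-fold (2.06 to 3.81), while it was 16.4-fold (6.92 to 51.2) above the Rgs5-positive cells. For Dpt the levels were 7.03, 0.994 and 0.599 in tendon-low, tendon-high and Rgs5-positive cells, and for C3 5.68, 0.621 and 0.359. On the mixed plate alone C3 stood at 3.73 in tendon-low cells. Its ratio to Rgs5-positive cells was 6.09 there (1.96 to 30.6) and 15.8 over both plates. Pi16 and Gdf10 rested on 1 UMI each in Rgs5-positive cells, so those ratios have no useful upper limit.

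The fibroblast lists were read in the tendon-low cells as well. The Pi16-type list, genes of adventitial fibroblasts such as Dpp4, Cd34 and Ly6a without the 10 genes, stood at 79.8 per 10000 (75.8 to 83.9) there, 43.0 in tendon-high and 39.9 in Rgs5-positive cells, and 8 of its 11 genes with enough UMIs were at least 2-fold above the Rgs5-positive cells, where 14.7% of all genes were, and 1 (Anxa3) was lower, where 11.3% were. Of the Pi16-type list, Ly6c1 was also higher in Rgs5-positive (16.6) than in tendon-low cells (9.95). Igfbp6 was higher in tendon-high (19.8) than in tendon-low cells (16.0). The Col15a1-type list stood at 59.0, 44.1 and 47.5, with 6 of 13 genes higher and 1 (Sparcl1) lower. The general fibroblast list, which holds collagens and Dcn, was highest in tendon-high cells, at 606 against 359 in tendon-low and 146 in Rgs5-positive cells, so this list and the 10 genes did not peak in the same group.

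Outside the tendon-low cells the rarer genes gave few UMIs. In tendon-high cells Myoc had 23 UMIs in 5 of 67 cells at 2 days, 31 in 12 of 64 cells in the 6-week pool and 3 in 3 of 43 cells in the 13-week pool. Dpt had 14, 1 and 1 UMIs in the same cells, so most of its tendon-high UMIs came from the 2-day pool. Gsn in tendon-high cells stayed within its intervals, at 17.3 (14.3 to 20.7), 14.6 (11.5 to 18.2) and 15.4 (11.7 to 19.8). In Rgs5-positive cells Gsn was at 22.2 (16.4 to 29.4), 10.1 (7.06 to 14.1) and 5.11 (2.80 to 8.58). Of the 48 UMIs at 2 days 29 were in 2 cells, and of the 35 at 6 weeks 13 were in 1 cell. Without the cells that held 10 or more UMIs, a step added after seeing the data, the 3 pools stood at 10.1 (6.09 to 15.8), 6.49 (4.07 to 9.83) and 5.11, with overlapping intervals. The median cell was at 0 in each pool, and 2 of those 3 high cells had a single UMI of Rgs5, the limit of the group.

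Cells with muscle transcripts held few UMIs of 7 of the genes, while Gsn, Dpt and Hmcn2 were read in them. In the 52 tendon-low cells with muscle lists, Clec3b, C3, Gdf10, Inmt and Dpep1 had 0 UMIs each. The limit of 3 UMIs is 0.711 per 10000 there, and the exact interval of a count of 0 reaches 0.874. Pi16 had 1 UMI and Myoc 2. Gsn had 41 UMIs in 24 of the 52 cells, a level of 9.72 (6.97 to 13.2) in these cells and at 96.6 (91.7 to 102) in the 159 others. Hmcn2 stood at 3.08 (1.64 to 5.27) in the muscle cells and at 2.07 (1.41 to 2.94) in the others. In the 30 cells with 3 or more satellite cell UMIs, Hmcn2 had 11 UMIs in 7 cells and Dpt 8 UMIs in 7 cells, against 2 UMIs each in the 19 cells with 3 or more skeletal muscle UMIs. The intervals of Hmcn2 thus overlapped between muscle cells and the others, and for Dpep1, at 0 UMIs in the muscle cells and 0.815 to 2.06 in the others, they overlapped too, since the exact two-sided interval of a count of 0 reaches above the 3-UMI limit. Those of the other 8 genes did not. Muscle cells made up 25.3%, 23.8% and 25% of the tendon-low cells in the 2-day, 6-week and 13-week pools.

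Within the tendon-low cells Gsn spanned a smaller range between time points than its pooled level did between cell groups. Its range between time points was wider in Rgs5-positive cells, from 22.2 in the 2-day pool to 5.11 in the 13-week pool. In tendon-low cells Gsn stood at 65.0 per 10000 (59.5 to 70.8) in the 2-day pool, 113 (105 to 122) in the 6-week pool and 48.5 (42.4 to 55.3) in the 13-week pool, so the 6-week pool was the highest and the 13-week pool the lowest. Myoc stood at 8.47, 13.7 and 6.81, Dpt at 7.21, 9.10 and 3.83, and C3 at 3.79, 9.41 and 3.62 in the same order. Clec3b was flat within its intervals, at 5.56 (4.04 to 7.47), 4.70 (3.20 to 6.67) and 4.26 (2.60 to 6.58). Pi16 had 16, 27 and 2 UMIs and Gdf10 10, 15 and 1, which were the fewest at 13 weeks.

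Between 2 days and 13 weeks, which shared a plate, none of the 6 genes with 20 or more UMIs differed 2-fold in tendon-low cells, while 11.9% of 910 genes were at least 2-fold lower and 5.82% at least 2-fold higher. Dpt was closest, at 0.532 of its 2-day level (0.295 to 0.917), and it passed below 2-fold when the gene minimum was lowered to 100 or when the marker limits were moved, while in reads it stood at 0.898. Hmcn2 was at 0.612 in UMIs and 0.178 in reads, and Myoc at 0.804, or 0.393 with a tendon limit of 1, so the calls of these 3 genes depended on the unit or the grouping. Pi16, with 18 UMIs in all, was at 0.210 (0.0235 to 0.895). Over all kept cells, 2 of 7 genes with enough UMIs, Pi16 (0.153, 0.0173 to 0.634) and Dpt (0.373, 0.213 to 0.624), were at least 2-fold lower at 13 weeks, where 8.46% of 2365 genes were. The Dpt value includes the tendon-high cells, where its UMIs went from 14 to 1. In reads Dpt was at 0.519 and no longer 2-fold lower, while Pi16 (0.116), C3 (0.358) and Hmcn2 (0.131) were, so Pi16 alone was called in both units. None of the 7 was 2-fold higher, where 6.55% were. Other transcripts moved in the same cells: the general fibroblast list (10 genes) was at 408, 427 and 180 per 10000 in the tendon-low cells of the 2-day, 6-week and 13-week pools, the skeletal muscle list at 28.7, 58.4 and 61.1, the perivascular list at 5.94, 15.8 and 20.6 and the endothelial list (9 genes) at 0.632, 3.34 and 7.88. The Pi16-type list went the other way from the general fibroblast list, at 69.9 (64.2 to 76.0), 81.2 (74.4 to 88.3) and 94.5 (85.9 to 104). Its genes, among them Ly6c1, which was highest in Rgs5-positive cells, were not read singly by pool. The Col15a1-type list was at 63.6, 67.5 and 39.2 (33.7 to 45.3). The osteoblast list stood at 47.2, 23.2 and 2.34, but 348 of its 373 UMIs at 2 days were in 1 cell. Without the 2 tendon-low cells with most of its UMIs, left out after seeing the data, it was at 3.24, 21.1 and 2.34, the highest at 6 weeks, where 62 of 80 cells held it. General fibroblast UMIs were in every cell of all 3 pools. The part of these lists in the values was not tested.

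The 6-week pool was higher than the 2-day pool for part of the genes. Of 8 genes with 20 or more UMIs, Pi16 (2.02-fold, 1.05 to 4.02) and C3 (2.48-fold, 1.58 to 3.97) were at least 2-fold higher in tendon-low cells, where 7.77% of 1120 genes were. None was at least 2-fold lower, where 7.59% were. C3 had 62 UMIs in 13 cells at 6 weeks and 30 UMIs in 6 cells at 2 days, so its level rested on few cells in both pools. The plates also differed in sequencing, with 7.65 reads per UMI on the 6-week plate and 5.02 and 5.50 for the 2-day and 13-week cells.

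**Figure D3:**
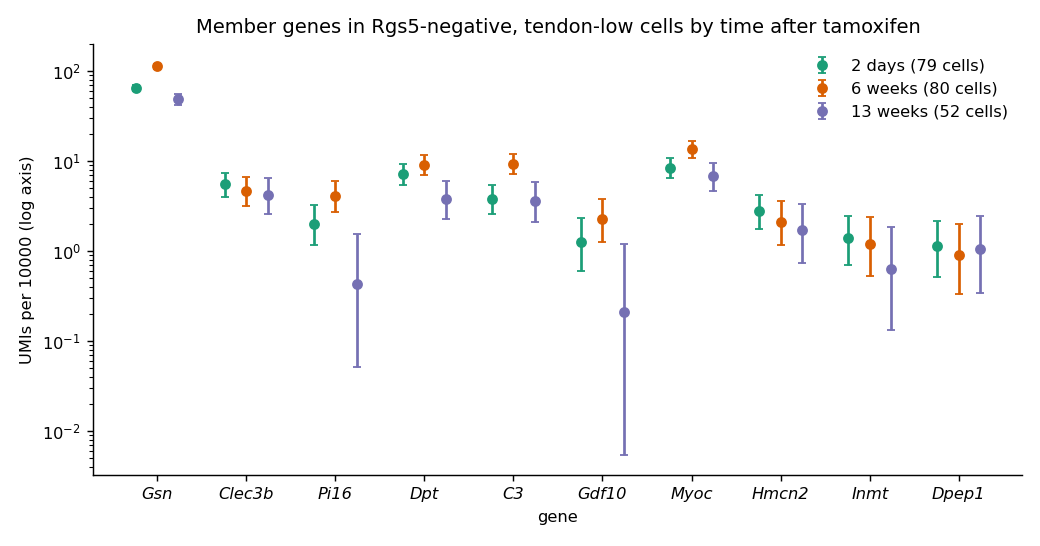
Pooled level of each gene in Rgs5-negative, tendon-low cells, in UMIs per 10000 on a log axis, for the 2-day, 6-week and 13-week pools, with exact 95% Poisson intervals. Gsn, C3 and Myoc are highest at 6 weeks (113, 9.41 and 13.7), Clec3b is level, and Pi16 and Gdf10 rest on 2 and 1 UMIs at 13 weeks.

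Gsn was found in most cells that held any of the other 9 genes. Of the tendon-low cells with a UMI of the other gene, all 61 with Myoc, all 25 with Pi16, all 24 with C3, all 16 with Gdf10, all 13 with Inmt and all 13 with Dpep1 also held Gsn, as did 46 of 48 with Clec3b, 60 of 69 with Dpt and 21 of 30 with Hmcn2. Of all 211 tendon-low cells 70.1% held Gsn, close to the share with Hmcn2, and at 300 UMIs 3 of 9 cells with Hmcn2 held it. Of the 30 cells with Hmcn2 8 were muscle-list cells, and in the 159 cells without muscle lists 20 of 22 with Hmcn2 held Gsn. Cells with the other genes were also deeper, for instance a median of 1169 UMIs with C3 and 693 without.

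At an equal depth of 300 UMIs, Gsn was higher in cells with more of the other genes. Tendon-low cells with none of the 9 (118 cells) had 35.0 per 10000 (29.1 to 41.8), those with 1 (52 cells) 89.1 (74.9 to 105), those with 2 (21 cells) 176 (145 to 212) and those with 3 or more (11 cells) 164 (123 to 214). The first 3 classes were separated by their intervals and the last 2 overlapped. Without the muscle-list cells, which were low in Gsn, a step added after seeing the data, 77 cells were left in the first class and the 4 classes stood at 49.4 (40.7 to 59.3), 102 (85.9 to 121), 183 (151 to 221) and 164, still with the first 3 apart. Of the 202 tendon-low cells 33.7% (27.2 to 40.6) held 2 or more of the 10 genes, against 4.73% (2.07 to 9.11) of tendon-high and 6.06% (2.26 to 12.7) of Rgs5-positive cells. By pool this was 32.5% (2 days), 40.8% (6 weeks) and 24.5% (13 weeks), with overlapping intervals. Without thinning, the cell with most of them held 7 of the 10.

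The phi coefficient of detection, at 300 UMIs over 483 cells, had a median of 0.0800 over the 45 pairs and was above 0 for 31 of them, so most pairs were found together more often than their shares give. Within the 202 tendon-low cells 26 of the 45 pairs were above 0, with a median of 0.0787. Over all pairs of 744 genes seen in 25 or more cells the median was -0.00204. Only Gsn, Clec3b, Dpt and Myoc reached 25 cells, and their 6 pairs had a median of 0.203. The cells share plates, amplification pools and differences in depth, so phi is given as a description.

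To set depth and the muscle cells aside, cells with both genes were counted in the 159 tendon-low cells without muscle lists and divided by the product of the shares within 4 depth bins. This count was chosen after seeing the data. Clec3b, Pi16, Dpt, C3 and Myoc formed a block in which all 10 pairs were above 1, with ratios of 1.30 to 1.89 and a median of 1.41. The block was picked for its ratios, and 37 of all 45 pairs were above 1 (median 1.25), as were 54.8% of the pairs of 1711 genes found in 13 or more of these cells (median 1.03). In all tendon-low cells thinned to 300 UMIs, 7 of the 10 pairs were above the product of their shares, and Clec3b with Dpt (2 cells against 2.14), Dpt with Myoc (4 against 4.75) and C3 with Myoc (2 against 2.57) were below it. Dpt and C3 shared 21 cells where the product gave 11.1. Pi16 and Myoc shared 17 against 11.5, and Clec3b and Pi16 17 against 11.7. Gsn was above 1 with all 9 others, between 1.12 and 1.25, and could hardly be higher since 124 of the 159 cells held it.

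Gdf10 and Pi16 were found together in no cell of this set. Of the 159 cells, 24 held Pi16 and 16 held Gdf10, none held both and the product was 3.89. This pair was the lowest of the 45, and how often other gene pairs share no cell was not taken. Gdf10 stood at 1.08 with Dpt and 1.05 with Myoc. In all 503 cells 1 held both. Clec3b and Gdf10 shared 5 cells against 7.92, a ratio of 0.632. Gdf10 was found with Dpep1 in 5 cells against 2.36 and with Inmt in 3 against 1.56, and Inmt with Dpep1 in 3 against 1.48, so these 3 genes paired above 1 with each other on very few cells. Dpep1 was not apart from Pi16, with 4 shared cells against 3.34, and shared 11 cells with Dpt against 6.22 but 4 with Myoc against 6.00. Of the 15 pairs of Gdf10, Inmt or Dpep1 with the 5 genes of the block 11 were above 1, among them Dpt with Inmt (1.81) and C3 with Gdf10 (1.29), and their median was 1.20. Pairs of Hmcn2 ran from 0.733 to 1.90 with a median of 1.10, and 5 of 9 were above 1.

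**Figure D4:**
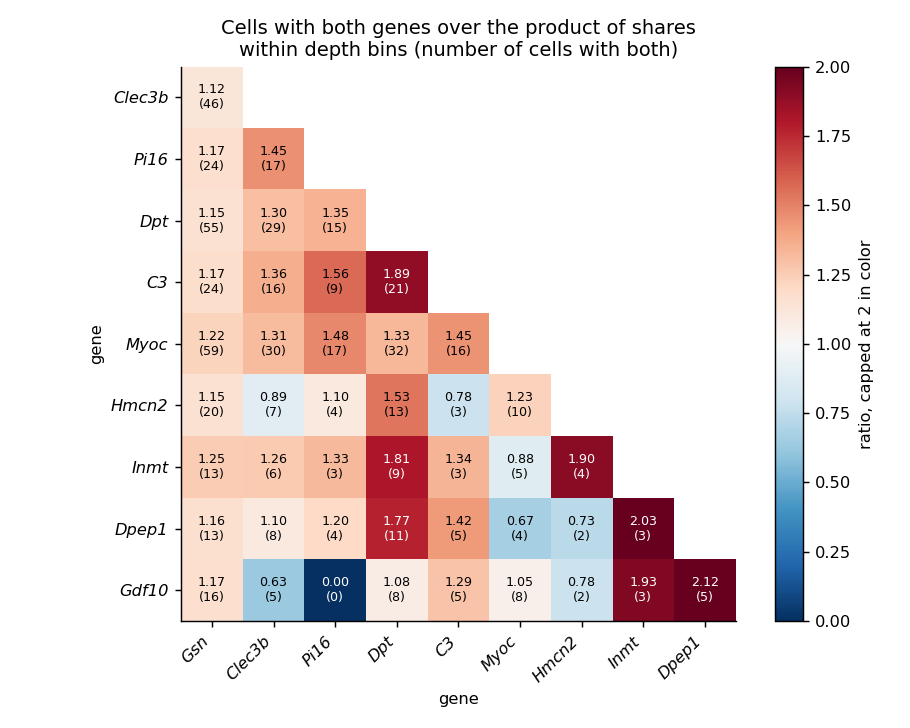
Cells with both genes over the product of their shares within 4 depth bins, in 159 Rgs5-negative, tendon-low cells without muscle lists; rows and columns are genes and the number of cells with both is in parentheses. Red is above 1 and blue below, with Clec3b, Pi16, Dpt, C3 and Myoc all above 1 (1.30 to 1.89) and Pi16 with Gdf10 at 0, the lowest of the 45 pairs.

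The fibroblast lists were then compared between tendon-low cells with and without each gene. The Pi16-type list (15 genes) was 2.95 times as high with Myoc as without (2.66 to 3.27), 2.87 with Clec3b, 2.26 with Pi16, 2.18 with Dpt and 1.87 with C3. It was 0.949 with Gdf10 (0.791 to 1.1) and 1.05 with Hmcn2 (0.918 to 1.19). The Col15a1-type list (15 genes, among them Apod, Smoc2 and Cxcl14) was 2.25 with Gdf10 (1.94 to 2.62), 2.27 with Dpep1 and 2.25 with Inmt, but 1.15 with Pi16 (0.987 to 1.32). Several genes went with both lists: Myoc (2.39 for the second), Dpt (1.82), Clec3b (1.66) and C3 (1.37), and for the Pi16-type list Inmt (1.38) and Dpep1 (1.40). The general fibroblast list was also higher with each gene except Hmcn2 (319 per 10000 with it and 367 without). It was 1.64 with Gsn, 1.64 with Clec3b and 1.43 with Pi16, and it stood at 647 with Dpep1 and 323 without. The cells without a gene also held more muscle transcripts, for instance a skeletal muscle list at 66.3 per 10000 without Myoc and 6.70 with it. The osteoblast list stood at 55.7 per 10000 with Clec3b and 12.3 without, and at 9.02 with Gsn and 88.6 without, and both contrasts rested on the cell with 348 of its UMIs. Without the 2 highest cells the values were 5.63 and 11.1 for Clec3b and 9.02 and 9.54 for Gsn. The part of these transcripts in the ratios was not tested.

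The ratios were therefore also taken in the 159 cells without muscle lists, a step added after seeing the data, and most were smaller there. The Pi16-type list was 2.21 with Myoc (1.99 to 2.45), 2.02 with Clec3b, 1.87 with Dpt, 1.75 with Pi16 and 1.42 with C3. It was 0.739 with Gdf10 (0.616 to 0.880), and the intervals of Hmcn2, Inmt and Dpep1 held 1. The Col15a1-type list was 1.90 with Gdf10 (1.63 to 2.21), 1.92 with Dpep1, 1.90 with Inmt, 1.99 with Myoc, 1.66 with Dpt and 1.30 with Clec3b (1.15 to 1.47), the interval with Hmcn2 was 1.56 to 2.06, and the intervals of Pi16 and C3 held 1. Gsn had the largest ratio of the 10 for both lists, 6.53 (4.84 to 9.02) and 2.96 (2.30 to 3.87). All these ratios pool the time points, between which the list levels and the shares of cells with each gene differed. The label of adventitial genes was thus met in part: in these cells the intervals lay above 1 for the adventitial list in Pi16 and C3, for both lists in Gsn, Clec3b, Dpt and Myoc, and for the other list in Gdf10, Hmcn2, Inmt and Dpep1. These intervals cover counting error only. The general fibroblast list was not compared in these 159 cells, and its part in the ratios was not tested.

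Cells were also compared that held Pi16 and neither Gdf10 nor Dpep1 (21 cells) with those that held Gdf10 or Dpep1 and no Pi16 (20 cells), a comparison added after the pairs were seen; 4 cells held both. The Pi16-type list stood at 151 per 10000 (137 to 166) in the first and 90.5 (79.3 to 103) in the second, 1.67-fold (1.42 to 1.96). The Col15a1-type list stood at 65.6 (56.5 to 75.7) and 126 (113 to 140), a ratio of 0.520 (0.433 to 0.625). Leaving out any 1 cell kept these 2 ratios between 1.61 and 1.76 and between 0.479 and 0.557. The general fibroblast list was also lower in the first set, at 439 against 555 (0.790, 0.732 to 0.853). Single cells overlapped: the Pi16-type list exceeded the other in 19 of the 21 cells, and in 8 of the 20. The sets were spread over the pools as 7, 13 and 1 and as 8, 10 and 2 cells (2-day, 6-week and 13-week), and the second set was deeper, with a median of 1247 against 937 UMIs.

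**Figure D5:**
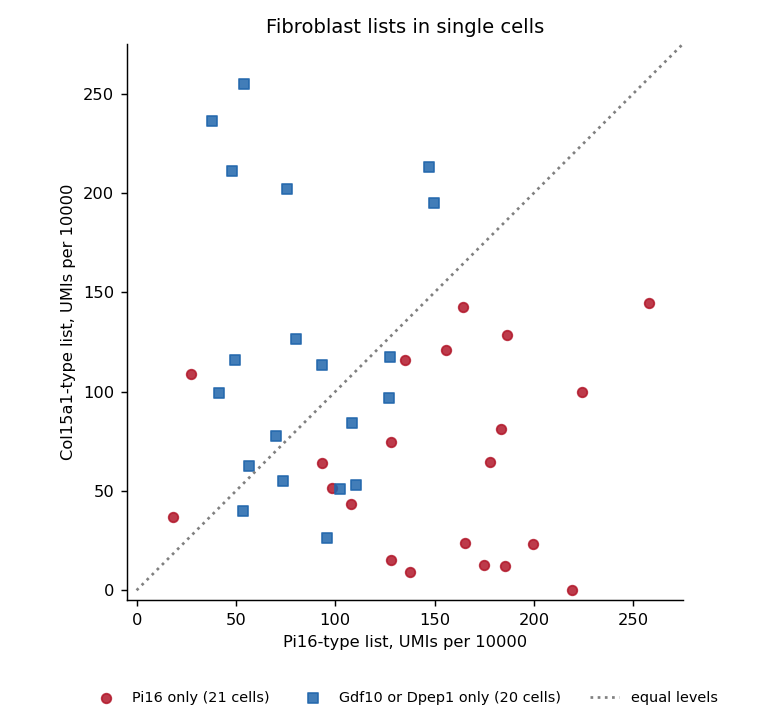
Summed level of the Pi16-type list (horizontal axis) and of the Col15a1-type list (vertical axis), in UMIs per 10000. Cells held Pi16 only (21, circles) or Gdf10 or Dpep1 only (20, squares). The dotted line marks equal levels. Of the circles 19 lie below the line, and of the squares 8 do.

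Named genes of the lists differed as follows. Igfbp6, which encodes a binding protein of insulin-like growth factors, stood at 39.3 per 10000 in the Pi16 cells and 13.7 in the others, 2.86-fold (1.95 to 4.28). Cd34, a surface sialomucin, was at 10.9 and 4.96. Sema3c, a secreted guidance protein, had 16 UMIs in 6 cells against 1 UMI. Of the same list Cd248, which encodes endosialin, went the other way, at 2.10 and 6.87 (0.306, 0.0995 to 0.805), and Dpp4, the surface peptidase of these fibroblasts, had only 2 and 3 UMIs. Apod, a lipid-carrying apolipoprotein, went the other way, at 10.2 and 38.2 (0.266, 0.170 to 0.406). G0s2, an inhibitor of the lipase Pnpla2, had 0 and 21 UMIs, the latter in 5 cells. Col15a1 itself had 6 and 5 UMIs (1.10, 0.280 to 4.56), and Hsd11b1 of the same list 2 and 0. Mfap5 and Smoc2, which sit on different lists, had overlapping intervals in both sets. Among the genes described here, Gsn was at 121 (109 to 135) in Pi16 cells and 190 (173 to 207) in the others, Myoc at 24.5 and 11.8 and Clec3b at 11.2 and 5.35, while Dpt was at 12.6 in both and C3 at 10.9 and 14.1 with overlapping intervals. Dpt and C3 were thus read on both sides at levels that could not be told apart at this depth, and Gsn in every cell of both sets.

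The genes whose detection was most like that of Gsn, by phi at 300 UMIs over 483 cells and 743 genes, were Ly6a (0.349), Myoc (0.299), Igfbp6 (0.266), Col3a1 (0.241) and Clec3b (0.230), and the median gene was at 0.00174. Ly6a encodes the surface protein Sca-1. For the number of the other 9 genes in a cell, the most alike by Pearson correlation were Ly6a (0.328), Col3a1 (0.319), Mfap5 (0.277), Pcolce2 (0.272) and Sepp1 (0.244).

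Relatives of the genes were compared where they had enough UMIs. Of 7 complement genes with 20 or more UMIs in tendon-low and Rgs5-positive cells together, C4b, Serping1 and Cd55 were at least 2-fold higher in the tendon-low cells and none was lower, read against 14.7% of all genes. C4b stood at 1.09, 0.311 and 0.479 per 10000 in tendon-low, tendon-high and Rgs5-positive cells, and Serping1, the C1 inhibitor, at 10.1, 5.65 and 4.43. Of the gelsolin family 1 of 6 genes could be compared, the capping protein gene Capg, at 2.08, 1.99 and 0.838, so its level in tendon-high cells was close to that in tendon-low cells. Of the TGF-β superfamily ligands 3 could be compared with Rgs5-positive cells and Bmp4 was higher, at 1.20 against 0.479. Against tendon-high cells none of 5 was higher, where 12.6% of all genes were, and 2 were lower, where 9.07% were. The list of these ligands stood at 4.90 per 10000 in tendon-low and 8.33 in tendon-high cells. Of matrix partners and homologues 6 of 8 were higher than in Rgs5-positive cells (Fbln1, Fn1, Dcn, Olfml3, Clec11a and Crispld2), but none of 9 was higher than in tendon-high cells and 5 were lower, where 9.07% of all genes were. Dcn, the partner of dermatopontin, stood at 58.6, 103 and 13.7, with its maximum in the tendon-high cells where Dpt was at 0.994. No dipeptidase or methyltransferase reached 20 UMIs against Rgs5-positive cells.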

How the data were processed

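The authors aligned 3′ reads to mm10 (GRCm38) with STAR 2.5.4a and tallied them by gene for every well using Drop-seq tools, and the submitters' processing notes also name Picard 2.9.3 and bcl2fastq 2.18.0.12. Raw counts of UMIs, and of reads, were deposited for each of 2 plates with no normalization. Levels here rest on the UMI counts, with reads as a check. Left out were 168 wells that belong to no time point. The matrices name the third pool 13 weeks, and the text list of wells gives 12 weeks.

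Wells with 200 or more genes were kept. Levels were pooled UMIs per 10000 with exact Poisson intervals, ratios had conditional binomial intervals and shares exact Clopper-Pearson intervals, all 95%. Genes with 20 or more UMIs in the cells compared were called at 2-fold. For shares each cell was thinned to 300 UMIs with a fixed seed, which 483 cells reached. A count of 0 was given a limit of 3 UMIs. There is no replicate, so no test was run. UMIs collapse PCR copies, but intervals cover counting error only. The ratio and thinning code was tested on simulated data. Doublets were called with Scrublet in scanpy 1.11.5, which marked 7 of 314 cells of the mixed plate and 5 of 189 of the 6-week plate, and these cells were kept.

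The genes named are the 10, those of the grouping, those of the marker and relatives lists, the 5 most like Gsn and the 5 most like the number of the other genes in a cell. The genes, the lists and the grouping were chosen with earlier results of these data known. Alternatives changed the gene minimum, marker limits, thinning, plate, unit and cells kept. Genes of a list without a row in the matrices (C1qa, C1qb, Cfd, Cfi, Hc, Gdf5, Gdf6, Clec3a, Dpep3, Pnmt and Sox10) were not analysed here.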

Additional observations from a re-analysis of the deposited data

How the results depend on the processing

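Across 16 other settings and 1 more chosen after seeing the data, 110 of 132 values of the main results stayed within their interval or within 1.5 times their count. The main results are shares and counts, which have no direction and so could not reverse. Ratios of single genes over time were not among them, and that of Clec3b in tendon-low cells (13 weeks over 2 days) turned from 0.765 in UMIs to 1.06 in reads. The share of tendon-low cells with Gsn was 47.4% at 200 UMIs, 69.5% at 500 UMIs, 70.1% without thinning and 66.7% without muscle-list cells. The share of tendon-high cells was 38.0% with 300 or more genes, 40.9% with a tendon limit of 1, 42.4% at 500 UMIs and 59.2% without thinning, and that of Rgs5-positive cells 36.2% without thinning. On the mixed plate 6 genes were 2-fold above Rgs5-positive cells, which were all 6 with enough UMIs there. The same count was 7 with a tendon limit of 1 and 8 without the deepest 5% of cells. These counts do not tell a lost 2-fold difference from too few UMIs. The genes 2-fold lower at 13 weeks in tendon-low cells numbered 1 with 100 or more genes, 1 with read counts (Hmcn2, 0.178 of its 2-day level in reads and 0.612 in UMIs), 1 with Rgs5 at 2 or more, 2 with a tendon limit of 1 (Dpt and Myoc) and 1 with a tendon limit of 5, and over all kept cells 1 without the deepest 5% of cells. Cells with 2 or more of the genes made up 43.2% with 300 or more genes, 27.0% at 200 UMIs, 50.6% at 500 UMIs, 49.3% without thinning and 43.1% without muscle-list cells. In tendon-low cells 41 of 45 pairs had a phi above 0 without thinning, against 26 at 300 UMIs, and over all cells 44 against 31. The median phi of all pairs of genes seen in 25 or more cells moved the same way. It was 0.0675 without thinning and 0.00513 at 300 UMIs in tendon-low cells, and 0.0389 and -0.00204 over all cells. The share of all gene pairs with a phi above 0 was not taken. Of 121 values of single genes 22 moved, and in reads the tendon-low levels per 10000 were 1.95 for Clec3b (4.95 in UMIs), 0.737 for Gdf10 (1.35), 0.711 for Inmt (1.15) and 15.7 for Myoc (9.84). The cause of these shifts was not tested. Thinning settings were not applicable to pooled levels, read counts and means over cells not to shares or pairs, and leaving out the highest cell of each gene not to pairs. Depth limits the rarest genes, with Inmt, Dpep1 and Gdf10 in 14 to 21 cells.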
